A study of Homo sapiens with 8 samples.

Results

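The response to TGF-β of HMLE cells carrying an shRNA against SOX4 was read from 4 of the 8 RNA-seq libraries of the study. HMLE cells are human mammary epithelial cells that were immortalized and kept as a line. Of these 4 libraries, 2 came from cells given TGF-β for 16 h and 2 from untreated cells, all with the lentiviral shRNA TRCN0000018213 against SOX4. The other 4 libraries, 2 untreated and 2 treated for 16 h, carried the scrambled shRNA SHC002. All 8 came from cells selected with puromycin at 0.5 µg/mL. The study used 1 shRNA against SOX4, so its effects on other transcripts cannot be told apart from those of lower SOX4, and the dose of TGF-β is not given in the sources used here. Whether replicate libraries were separate cultures is not said in the labels, so the p-values measure the spread between these libraries, which may be technical. Of 25162 genes in the deposited table, 5178 could be tested for the response in SOX4-shRNA cells.

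TGF-β binds paired receptor kinases that phosphorylate SMAD2 and SMAD3. These join SMAD4, enter the nucleus and act with other factors on target genes, among them matrix proteins, protease inhibitors and feedback inhibitors of the pathway itself. In mammary epithelial cells prolonged TGF-β is known for driving epithelial-mesenchymal transition (EMT), in which cells gain N-cadherin and vimentin and lose epithelial junctions, and for halting the cell cycle. SOX4 is a SoxC transcription factor and itself a known TGF-β target.

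The values are FPKM, in which read numbers are divided by the length of the transcript and the size of the library, and 34.1% of the deposited cells had lost their decimal mark. Marks were restored for genes with 1 transcript whose values are whole numbers of reads, and only those genes were tested. More than 1 reading of a value can be whole. Among such readings the choice favored agreeing replicates, small changes, similar responses in both kinds of cells and fewer reads. The replicate spread, p-values and changes below therefore depend in part on that choice. Each library held 4.01 M to 5.36 M reads in 5191 such genes, and the median gene had 359 to 481 reads. Replicates of SOX4-shRNA cells lay further apart than those of scrambled-shRNA cells. The chi-square per gene was 21.1 untreated and 20.8 with TGF-β, against 9.51 and 3.34, so the spread shared by the 4 groups in the fit may be too small for SOX4-shRNA cells. All 19 basal mammary markers reached 1 FPKM in some library. Of 18 luminal markers, however, 6 were read as 0 and 6 stayed below 1 FPKM in all 8 libraries. Of 14 leukocyte markers 4 were read as 0 and 7 stayed below 1 FPKM, and of 10 endothelial markers 2 and 7. Values read as 0 include damaged small values that were set to 0. Fibroblast markers were present: 13 of 16 reached 1 FPKM, none was at 0, and LUM, PDGFRA and ASPN stayed below 1. In these bulk samples fewer cells of a type and less RNA per cell cannot be told apart.

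More genes rose than fell with TGF-β in SOX4-shRNA cells in the fit reported here. Of 5178 genes tested, 454 (8.77%) were called, of which 329 (6.35%) rose and 125 (2.41%) fell (limma, Benjamini-Hochberg adjusted p under 0.05). Changes are given as log2 fold changes of FPKM + 1, a scale that understates the change of genes near or below 1 FPKM. The rises had a median of 0.81 and ran from 0.42 to 3.68, and 103 of them were at least 1. The falls were smaller, with a median of -0.58 and a range of -0.40 to -1.37, and 2 were at or below -1. The median over all tested genes was -0.044. Treated and untreated libraries did not overlap for any of the 454 called genes, but non-overlap alone was common, since 20.2% of tested genes lay apart upward and 24.4% downward. The counts depended on the libraries used to estimate the spread. With the SOX4-shRNA libraries alone 135 genes rose and 15 fell, and with any 1 of the 8 libraries left out 178 to 270 rose and 22 to 103 fell. With crossed replicate numbers as a block (untreated library 1 with treated library 2, and the reverse) the excess of rises was nearly gone, at 805 rises and 781 falls. The SOX4-shRNA libraries varied together by these crossed numbers, for which the reported fit has no term. The fewest rises came without untreated SOX4-shRNA library 2 (178, with 33 falls), without treated library 2 (179, with 22) and without either treated scrambled library (198, with 29). The falls, but not the rises, dropped by more than 1.5 times without untreated SOX4-shRNA library 1 (55) or either untreated scrambled library (51). Direction as well as size rests on the restored marks, since only 2 called genes had all 4 SOX4-shRNA values intact. At the next most probable reading 244 of the 329 rises and 91 of the 125 falls would have the opposite sign. The restoration model gave the readings used a posterior of at least 0.966 in every called gene, with a median of 0.999994. Most of the largest rises lay below that median, with 0.968 for ADAM19, 0.970 for SLCO2A1 and 0.984 for MMP9. TGFBI and UCA1 had 0.995, and XYLT1 had 0.999998. This posterior assumes weights that favor agreeing replicates and small changes and were fitted on these same genes. It is not an independent check of the readings.

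**Figure D1:**
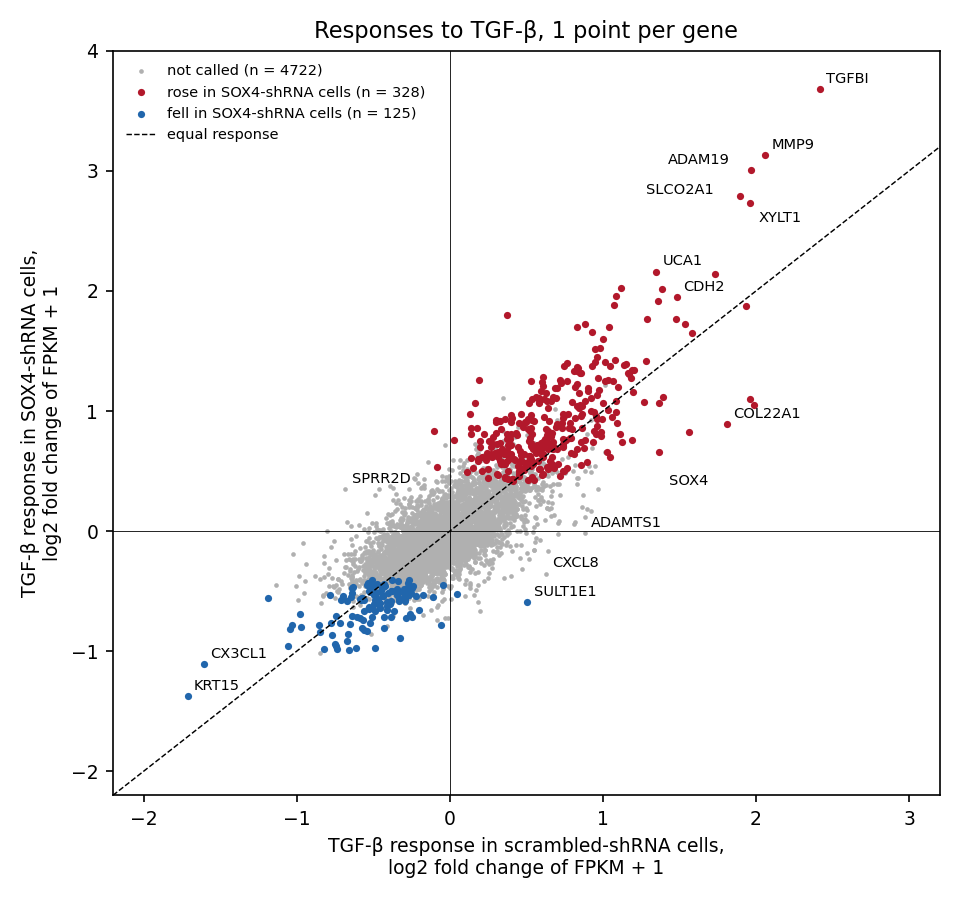
Log2 fold change of FPKM + 1 with TGF-β in scrambled-shRNA cells (x axis) and in SOX4-shRNA cells (y axis), with 1 point for each of the 5175 genes tested in both and the genes called in SOX4-shRNA cells in color. TGFBI, MMP9 and ADAM19 stand highest on the y axis, at 3.68, 3.13 and 3.01, above the dashed line of equal response, and KRT15 stands lowest at -1.37.

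SOX4 itself was tested first, since it is the targeted gene (chr6:21593982-21598850, hg19, as are the gene coordinates below). In SOX4-shRNA cells it was measured at 0.923 and 1.02 FPKM untreated and 2.37 and 1.88 FPKM with TGF-β. Scrambled-shRNA cells had 8.74 and 8.04 FPKM untreated and 18.7 and 17.6 FPKM treated. The highest SOX4-shRNA library was below the lowest scrambled one, which fits the labels, and within SOX4-shRNA cells both treated libraries were above both untreated ones. The residual SOX4 rose with TGF-β (0.66 ± 0.13 (SE), adjusted p = 0.0175), a call kept under 12 of 21 settings tried. In scrambled-shRNA cells its change was 1.03, and the difference between the responses was not called (-0.37 ± 0.18 (SE), adjusted p = 0.991).

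TGFBI, the secreted TGF-β-induced matrix protein (chr5:135364677-135399507), had the largest response. It was measured at 82.2 and 82.2 FPKM untreated and 1023 and 1112 FPKM treated, from 2972 to 43891 reads. The untreated libraries agreed closely and the treated ones stood far above them, with a log2 fold change of 3.68 ± 0.096 (SE), adjusted p = 8.52e-07. The treated values were intact in the table and the untreated ones had lost their mark. At the next most probable reading of the untreated values the change would be 0.38, still a higher level with TGF-β. TGFBI had the weakest whole-read evidence among the named genes (1.71 log10 units against a minimum of 1.5) and is not tested at a minimum of 3.

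The next largest rises were in proteolytic enzymes, a transporter and a proteoglycan enzyme. MMP9, the gelatinase that cleaves type IV collagen (chr20:44637547-44645200), was measured at 3.61 and 2.05 FPKM untreated and 26.0 and 38.9 FPKM treated. The replicates of MMP9 were unequal, yet the lower treated library was well above the higher untreated one (3.13 ± 0.23 (SE), adjusted p = 0.000263). ADAM19, a membrane-bound metalloprotease (chr5:156822542-157002783), went from 3.65 and 3.18 FPKM to 33.4 and 35.6 FPKM, with close replicates in each group (3.01 ± 0.11 (SE), adjusted p = 5.94e-06). SLCO2A1, the prostaglandin transporter (chr3:133651545-133771028), was near 1 FPKM untreated, at 1.31 and 1.33, and reached 14.4 and 15.8 FPKM (2.79 ± 0.12 (SE), adjusted p = 1.13e-05). XYLT1, the xylosyltransferase that starts glycosaminoglycan chains on proteoglycans (chr16:17195626-17564817), was at 0.937 and 0.797 FPKM untreated and 10.9 and 11.9 FPKM treated, with no overlap (2.73 ± 0.11 (SE), adjusted p = 1.13e-05). The long noncoding RNA UCA1 (chr19:15939016-15947138) rose from 8.28 and 7.996 FPKM to 38.0 and 41.8 FPKM (2.16 ± 0.11 (SE), adjusted p = 4.98e-05). These sizes rest on the restored marks. At the next most probable reading the change would be 0.21 for MMP9, 0.017 for ADAM19, 0.18 for SLCO2A1 and 0.64 for UCA1, while for XYLT1, whose untreated values were intact, it would be 4.34.

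After these came 6 genes with changes near 2. ABCA1, the cholesterol efflux pump, rose by 2.14, adjusted p = 6.55e-05, the forkhead factor gene FOXS1 by 2.02, adjusted p = 0.00059 and KCTD11, an adaptor of a ubiquitin ligase, by 2.02, adjusted p = 0.000521. WNT9A, a Wnt ligand, rose by 1.96, adjusted p = 0.00299, CDH2, which encodes N-cadherin, by 1.95, adjusted p = 0.000145, and VASN, whose product binds TGF-β, by 1.92, adjusted p = 0.00225. All 6 had both treated libraries above both untreated ones. FOXS1 was read as 0 in 1 untreated library, so its fold depends on the added 1 FPKM. For ABCA1, WNT9A and CDH2 the next most probable reading has the opposite sign (-0.64, -0.74 and -0.86). The call of WNT9A was kept under 20 of 21 settings, and those of the other 5 under every setting in which they were tested. Of these 6 genes, only FOXS1 was still tested when a stricter posterior was required.

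**Figure D2:**
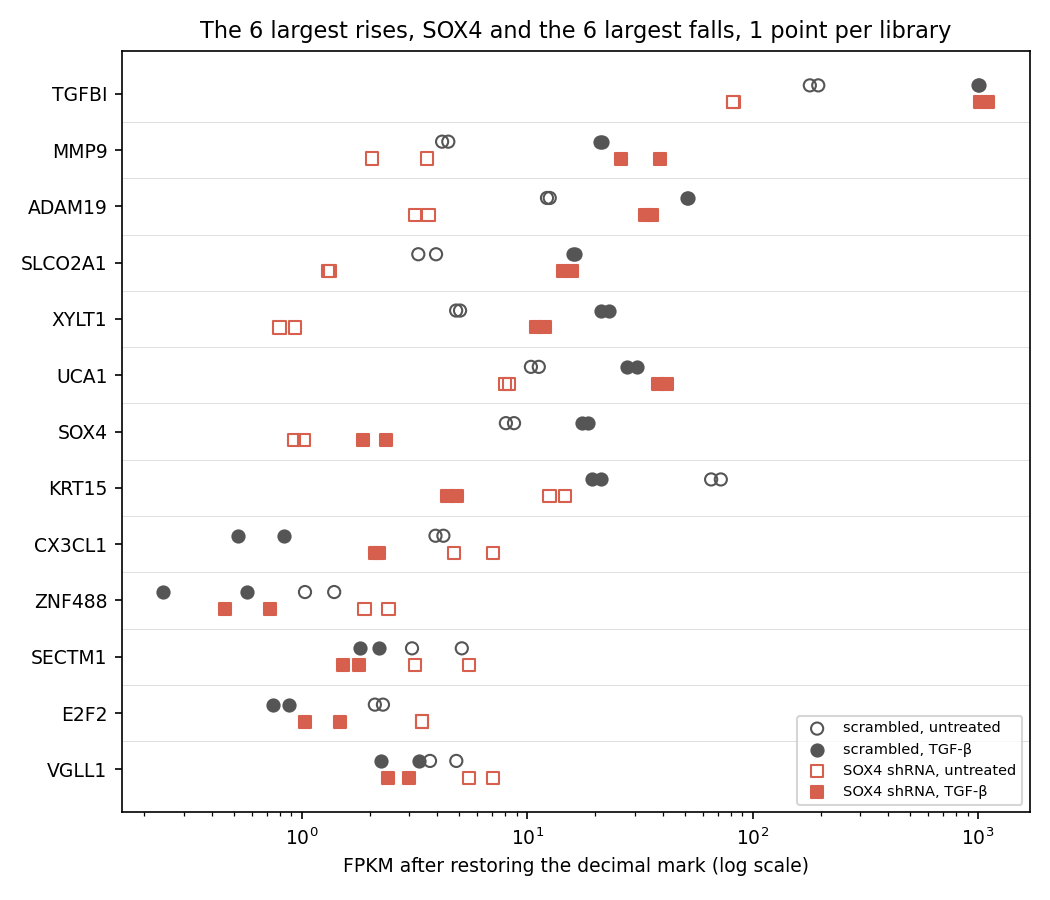
FPKM on a log axis after restoring the decimal mark, 1 point per library, for the 6 largest rises, SOX4 and the 6 largest falls in SOX4-shRNA cells, with open symbols for untreated and filled symbols for treated libraries. In each row the filled squares of SOX4-shRNA cells lie entirely to 1 side of the open ones, to the right for TGFBI to SOX4 and to the left for KRT15 to VGLL1.

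The promoters of TGFBI, ADAM19, XYLT1 and ABCA1 are shown because these were the largest rises with an entry in the promoter table used. Each is the 250 bases before the RefSeq start on GRCh38.p14, read 5′ to 3′ along the gene's strand. They lie at chr5:136028738-136028987 (plus strand), chr5:157575776-157576025 (minus), chr16:17470961-17471210 (minus) and chr9:104928156-104928405 (minus). Capitals mark a match, on either strand, to the AP-1 motif TGAGTCA, which reads TGACTCA on the opposite strand, the SMAD palindrome GTCTAGAC or CAGACA, which holds the short SMAD element CAGA.
TGFBI: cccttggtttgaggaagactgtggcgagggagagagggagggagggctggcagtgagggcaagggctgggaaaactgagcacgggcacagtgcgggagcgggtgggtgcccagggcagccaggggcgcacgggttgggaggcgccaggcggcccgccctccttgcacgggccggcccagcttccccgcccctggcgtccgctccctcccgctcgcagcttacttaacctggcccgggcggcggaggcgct
ADAM19: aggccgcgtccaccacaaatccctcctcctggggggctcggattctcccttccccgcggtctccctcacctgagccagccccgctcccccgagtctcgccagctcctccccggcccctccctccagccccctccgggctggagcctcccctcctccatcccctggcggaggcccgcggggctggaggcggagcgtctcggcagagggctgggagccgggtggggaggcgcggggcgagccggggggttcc
XYLT1: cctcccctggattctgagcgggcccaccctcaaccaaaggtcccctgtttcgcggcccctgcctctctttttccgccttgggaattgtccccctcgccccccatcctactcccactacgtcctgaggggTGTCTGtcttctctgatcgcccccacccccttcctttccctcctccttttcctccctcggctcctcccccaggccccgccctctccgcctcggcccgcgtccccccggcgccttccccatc
ABCA1: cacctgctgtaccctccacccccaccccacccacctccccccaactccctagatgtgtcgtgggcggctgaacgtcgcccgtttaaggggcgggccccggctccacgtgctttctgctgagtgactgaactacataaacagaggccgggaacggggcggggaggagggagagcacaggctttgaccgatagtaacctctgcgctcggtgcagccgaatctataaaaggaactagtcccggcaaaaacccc
The 4 windows held 1 match, a CAGACA on the opposite strand of XYLT1, 121 bases before the start. Over the genes with a window, CAGACA was found in 12.9% of 241 that rose, 7.29% of 96 that fell and 9.19% of 4114 tested, against 13.6% of all 27305 windows. The AP-1 motif was found in 4.56% of those that rose, 4.17% of those that fell, 2.63% of those tested and 4.16% of all windows. The palindrome was in 0 of the 241 and 0 of the 96, against 3 of the 4114 tested and 48 of all 27305 windows. It is too rare for these counts of 0 to be read as an absence. These shares describe letters in a short window and were not tested.

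The falls began with KRT15, a keratin of basal epithelial cells (chr17:39669997-39678781), at 12.6 and 14.7 FPKM untreated and 4.41 and 4.87 FPKM treated. Both treated libraries were well below both untreated ones (-1.37 ± 0.12 (SE), adjusted p = 0.00059), and the call held under 22 of 22 settings, but at the next most probable reading of the marks KRT15 would have 1.70. CX3CL1, the membrane-anchored chemokine fractalkine (chr16:57406389-57418956), was at 7.08 and 4.72 FPKM untreated and 2.12 and 2.19 FPKM treated (-1.11 ± 0.18 (SE), adjusted p = 0.00914). Its treated libraries were nearly equal and its untreated ones were not. ZNF488, a zinc finger gene, was at 2.42 and 1.90 FPKM and then 0.456 and 0.721 FPKM, below 1 FPKM in both treated libraries (-0.99 ± 0.18 (SE), adjusted p = 0.0135). SECTM1, a secreted and membrane protein of epithelial and myeloid cells, was at 5.54 and 3.19 FPKM untreated and 1.79 and 1.52 FPKM treated (-0.98 ± 0.25 (SE), adjusted p = 0.0473). Its untreated libraries lay far apart, and the call was kept under 11 of 22 settings. E2F2, an activating E2F factor of S-phase entry, was at 3.42 and 3.42 FPKM untreated and 1.48 and 1.03 FPKM treated, with no overlap (-0.98 ± 0.14 (SE), adjusted p = 0.00483). VGLL1, a TEAD cofactor of epithelial cells, was at 7.03 and 5.54 FPKM untreated and 2.40 and 2.995 FPKM treated, also with no overlap (-0.98 ± 0.19 (SE), adjusted p = 0.0188). The next most probable reading would turn the sign for SECTM1 (1.74), E2F2 (1.59) and VGLL1 (1.94). Further falls near -0.9 to -1 were those of TGFB2-AS1 (-0.97), an antisense RNA of the TGFB2 locus, PLD6 (-0.96), SAPCD2 (-0.96, called under 14 of 22 settings), KLK9 (-0.94), CNKSR3 (-0.92) and LINC00052 (-0.89, called under 12 of 21 settings). KLK9 shares exon sequence with KLK8 on the same strand, and PLD6 and CNKSR3 overlap other annotated transcripts, as do BMPR2, IFIT2, LOXL2, PFKFB4, WNT7B and MIR100HG below, so reads there may be shared. Whether reads were counted by strand is not given in the sources used here, so reads of TGFB2-AS1 and TGFB2, and of other antisense pairs such as VIM with VIM-AS1, cannot be told apart.

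Groups of genes were then described by 36 functional lists, which share members with each other. The functional lists and the 5 cell type marker lists name 997 genes. Of these, 347 were tested, 497 had several transcripts in the table, 90 stayed below 1 FPKM in every library, 61 could not be restored or tested and 2 were not in the table. Genes low without TGF-β passed the filter of 1 FPKM in 2 libraries more easily if they rose. Each count is to be read against the 6.35% of all tested genes that rose and the 2.41% that fell. Most called genes would turn their sign at the next most probable reading of the marks, and this is printed for only some of them.

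**Figure D3:**
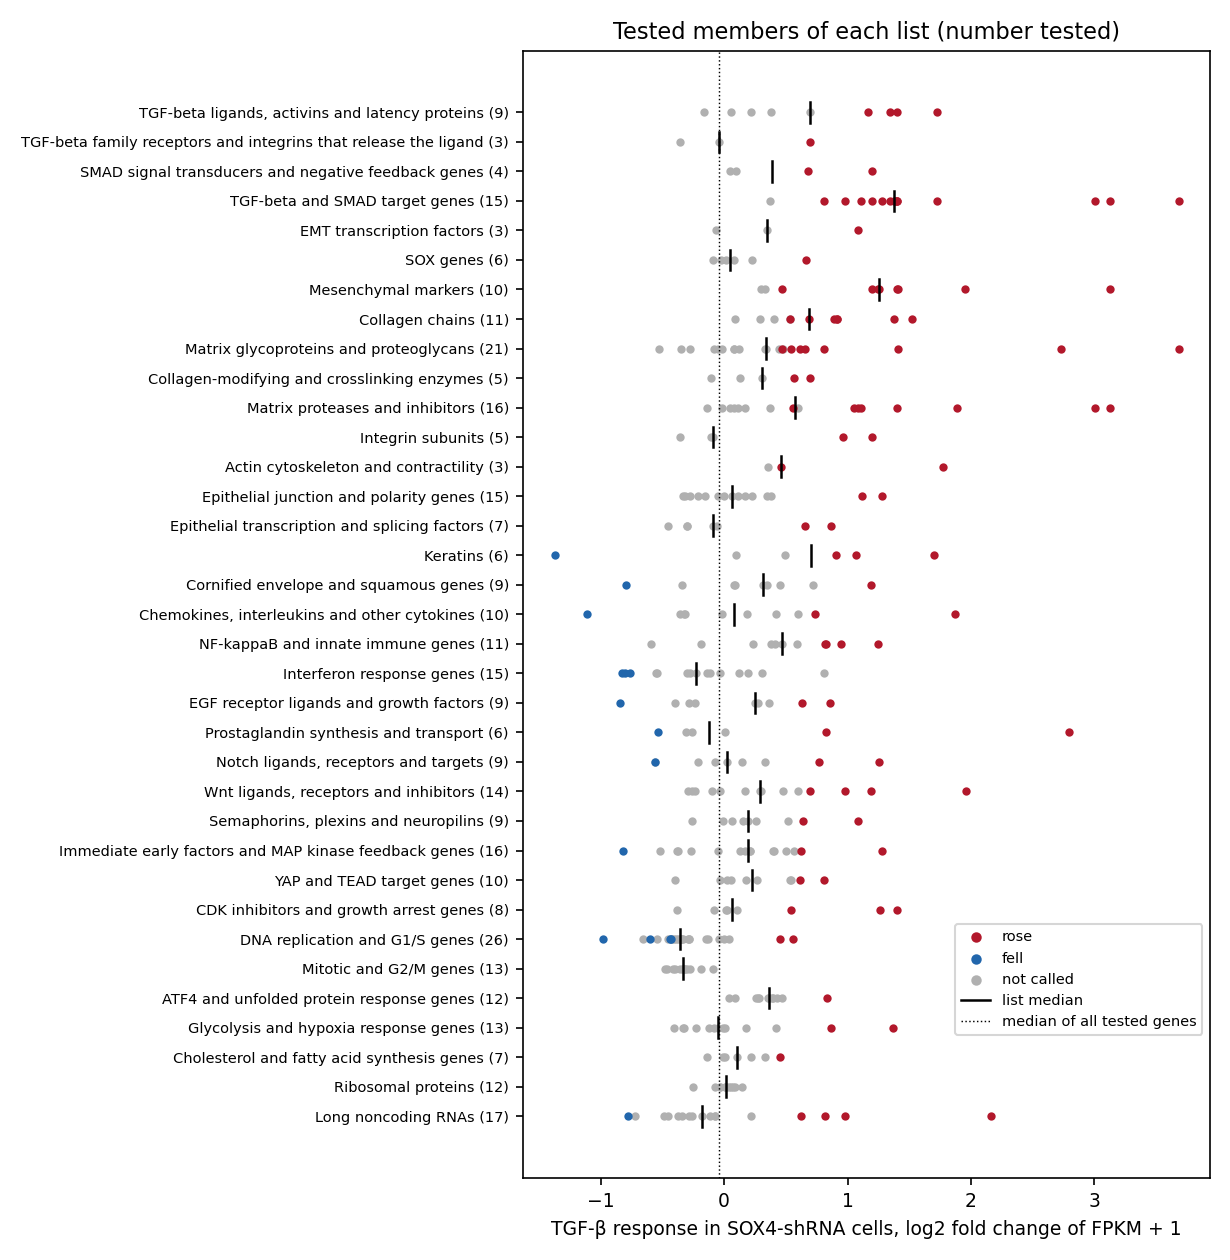
TGF-β response in SOX4-shRNA cells (x axis, log2 fold change of FPKM + 1) of the tested members of each functional list that had 3 or more, 1 point per gene, with the list median as a bar and the median of all tested genes, -0.044, as a dotted line. The TGF-β and SMAD target list has 14 of 15 points in the color of rises, while the mitotic list has 13 points below 0 with none called.

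Among the ligands and their extracellular regulators, 4 of 9 tested members rose and none fell (median 0.69). LTBP2, a latent TGF-β binding protein of the microfibrils, had the smallest p, at 6.79 and 5.79 FPKM untreated and 21.9 and 24.3 FPKM treated (1.73 ± 0.12 (SE), adjusted p = 0.000222). Both treated LTBP2 libraries were far above the untreated ones. INHBA, the activin A subunit, rose from 21.3 and 20.1 FPKM to 54.5 and 53.3 FPKM with nearly equal replicates (1.34 ± 0.10 (SE), adjusted p = 0.000337). The other reading would turn the sign for LTBP2 (-1.41) and INHBA (-1.92), and below for FSTL3 (-0.21), BMPR2 (-2.48) and BAMBI (-1.98). FSTL3, which binds and blocks activin, rose by 1.40, adjusted p = 0.0139, and NOG, the BMP antagonist noggin, by 1.17, adjusted p = 0.0155. TGFB1, the TGF-β1 ligand gene, did not pass (0.69 ± 0.25 (SE), adjusted p = 0.135), with untreated libraries at 47.3 and 26.3 FPKM and treated ones at 52.5 and 63.6 FPKM. Of 3 receptor genes tested 1 rose, BMPR2, a type II BMP receptor, at 7.56 and 8.70 FPKM untreated and 14.8 and 12.8 FPKM treated (0.70 ± 0.15 (SE), adjusted p = 0.0281, called under 12 of 22 settings). TGFBR1 and TGFBR2 have several transcripts and were not tested. Of 4 transducers and feedback genes 2 rose. SMURF2, a ubiquitin ligase that marks SMADs and the receptor for degradation, went from 17.1 and 20.02 FPKM to 48.4 and 39.7 FPKM, with no overlap (1.2 ± 0.13 (SE), adjusted p = 0.00161). BAMBI, a decoy receptor, also rose (0.68, adjusted p = 0.0431, called under 7 of 21 settings), whereas SMAD4, the common partner, had 0.046, adjusted p = 0.844.

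Known TGF-β and SMAD targets were the list with the highest median, 1.37, and 14 of its 15 tested members rose. The list was chosen with earlier results of these data known. Besides TGFBI, ADAM19, LTBP2, MMP9 and INHBA, the rises were BHLHE40, TIMP3, GADD45B, ITGA5, NUAK1, COL1A1, CCN2, FSTL3 and JUNB, and the remaining gene was TIMP1. GADD45B, a stress and growth arrest gene, was at 21.3 and 16.8 FPKM untreated and 49.2 and 53.7 FPKM treated (1.40 ± 0.14 (SE), adjusted p = 0.000879). TIMP3, a metalloprotease inhibitor of the matrix, was higher in both treated libraries, from 29.2 and 27.7 FPKM to 59.8 and 65.3 FPKM (1.11 ± 0.10 (SE), adjusted p = 0.00059). CCN2, connective tissue growth factor, was at 21.1 and 22.5 FPKM and then 38.7 and 39.1 FPKM (0.81 ± 0.11 (SE), adjusted p = 0.00483). At the other reading GADD45B would have -1.86 and CCN2 -2.46, while TGFBI, ADAM19 and MMP9 would keep their sign. JUNB, an AP-1 subunit, was uneven between replicates, with 49.8 and 25.4 FPKM untreated and 70.9 and 109 FPKM treated (1.28 ± 0.32 (SE), adjusted p = 0.0455, called under 12 of 22 settings). ID3, the only BMP-type target of its list that could be tested, did not pass (0.29 ± 0.32 (SE), adjusted p = 0.627), and its libraries overlapped, at 18.0 and 10.6 FPKM untreated and 13.4 and 21.9 FPKM treated.

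Most mesenchymal genes that could be tested rose in SOX4-shRNA cells. Of 10 tested members 8 rose (median 1.25): CDH2, MMP9, VIM, MMP14, TNC, CDH11, ITGA5 and SPARC. FBN1 and PDGFRB did not pass. CDH2, N-cadherin (chr18:25512843-25757910), was at 1.76 and 2.27 FPKM untreated and 11.1 and 10.1 FPKM treated. VIM, the intermediate filament vimentin, was abundant before treatment, at 139.7 and 139.9 FPKM, and reached 351 and 320.3 FPKM (1.26 ± 0.094 (SE), adjusted p = 0.000309). Neither gene had overlapping groups. TNC, the matrix protein tenascin-C, went from 26.1 and 25.0 FPKM to 66.2 and 73.0 FPKM (1.41 ± 0.12 (SE), adjusted p = 0.000482), and MMP14, a membrane-anchored collagenase, from 76.7 and 64.7 FPKM to 179 and 198 FPKM (1.40 ± 0.12 (SE), adjusted p = 0.000479). Of 3 tested EMT transcription factors 1 rose, SNAI2, which encodes Slug, at 77.2 and 83.1 FPKM untreated and 175 and 168 FPKM treated (1.09 ± 0.098 (SE), adjusted p = 0.00059). FOXC1 had 0.34, adjusted p = 0.113 and TWIST1 -0.065, adjusted p = 0.81. SNAI1 stayed below 1 FPKM in all 8 libraries, while ZEB1 and ZEB2 have several transcripts and were not tested.

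Collagens and their enzymes rose in part. Of 11 tested collagen chains 7 rose and none fell (median 0.69). COL4A1, a basement membrane chain, was at 52.1 and 48.8 FPKM untreated and 149 and 145 FPKM treated, with no overlap (1.53 ± 0.098 (SE), adjusted p = 0.000145), and would have -1.77 at the other reading. COL1A1, a chain of fibrillar type I collagen, went from 12.8 and 9.42 FPKM to 25.9 and 34.8 FPKM (1.37 ± 0.18 (SE), adjusted p = 0.00375). Its partner COL1A2 rose by 0.69, adjusted p = 0.00956 and COL27A1 by 0.92, adjusted p = 0.00983. COL22A1 was at 0.105 and 0.0315 FPKM untreated and rose to 1.04 and 0.923 FPKM (0.89, adjusted p = 0.00587). COL3A1 was low as well and its rise was called under 8 of 21 settings (0.53, adjusted p = 0.0453). The other reading would also turn the sign for COL1A1 (-1.84), COL1A2 (-2.13), COL27A1 (-2.22) and COL3A1 (-0.72), but not for COL22A1 (2.13). COL1A1, COL1A2 and COL3A1 also stand in the fibroblast list, whose 6 fitted markers summed to 53.4 to 69.9 FPKM untreated and 90.0 to 112 FPKM treated. The part of a few fibroblast-like cells in the collagen changes was not tested. Of 5 tested collagen-modifying enzymes 2 rose, LOXL2 (15.1 and 11.02 FPKM untreated, 20.2 and 23.0 FPKM treated, 0.70 ± 0.16 (SE), adjusted p = 0.0332), a lysyl oxidase that crosslinks collagen, and PLOD1 (0.57, adjusted p = 0.0498), a lysyl hydroxylase. LOXL2 was called under 11 of 22 settings and PLOD1 under 8 of 22 settings.

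Other matrix proteins, proteases and adhesion genes followed. Of 21 tested glycoproteins and proteoglycans 8 rose and none fell (median 0.34), TGFBI with the smallest p. Besides TGFBI, XYLT1, TNC and CCN2, the matricellular protein CCN1 rose by 0.61, adjusted p = 0.0075, and SPOCK1, SPARC and LAMB1 completed the 8. Of 16 tested proteases and inhibitors 8 rose and none fell (median 0.58), ADAM19 with the smallest p. ADAMTS15, a protease that cuts proteoglycans, rose from 0.605 and 0.577 FPKM to 4.64 and 5.13 FPKM, with a clear gap between the groups (1.89 ± 0.13 (SE), adjusted p = 0.00024). Of 5 tested integrin subunits 2 rose. ITGA5, the fibronectin receptor subunit, was at 66.3 and 56.9 FPKM untreated and 131 and 155 FPKM treated (1.2 ± 0.13 (SE), adjusted p = 0.00116), and ITGB5 had 0.96, adjusted p = 0.00522. Of 3 tested cytoskeletal genes 2 rose, RHOB, a small GTPase, from 15.1 and 14.1 FPKM to 46.0 and 59.0 FPKM (1.77 ± 0.15 (SE), adjusted p = 0.000482), and the unconventional myosin gene MYO10 (0.46, adjusted p = 0.0289, called under 11 of 22 settings).

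Epithelial junction genes showed no fall that passed. Of 15 tested members 2 rose and none fell (median 0.061). GJB2, connexin 26, went from 23.4 and 23.9 FPKM to 57.7 and 47.9 FPKM (1.12 ± 0.12 (SE), adjusted p = 0.00116), and CLDN4, a claudin of tight junctions, rose by 1.28, adjusted p = 0.0106. CDH1, E-cadherin, was at 78.0 and 76.1 FPKM untreated and 95.4 and 85.7 FPKM treated. Its treated values were above the untreated ones by less than the test required (0.23 ± 0.10 (SE), adjusted p = 0.214). EPCAM, an epithelial adhesion molecule, overlapped between groups, at 97.0 and 114 FPKM and 99.4 and 69.6 FPKM (-0.33 ± 0.17 (SE), adjusted p = 0.272). Of 7 tested epithelial transcription and splicing factors 2 rose and none fell. KLF4, a factor of epithelial differentiation, was at 18.5 and 16.6 FPKM untreated and 26.6 and 29.9 FPKM treated (0.65 ± 0.13 (SE), adjusted p = 0.0212), and OVOL1 had 0.86, adjusted p = 0.0387 and was called under 10 of 20 settings. The splicing factor gene ESRP2 had -0.30, adjusted p = 0.203.

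Keratins moved in both directions. Of 6 tested keratins 3 rose and 1 fell, KRT15. KRT6B was at 27.3 and 24.4 FPKM untreated and 48.0 and 50.9 FPKM treated (0.91 ± 0.11 (SE), adjusted p = 0.0025). KRT16 rose by 1.07, adjusted p = 0.00343 and KRT81 by 1.70, adjusted p = 0.00641. These 3 have near-identical copies, so their reads may be shared with them and their values are uncertain. KRT14 and KRT5, the keratin pair of basal cells, could not be tested as whole reads, but all their values were intact in the table. KRT14 was at 1800 and 1446 FPKM untreated and 2837 and 2875 FPKM treated, with no overlap. KRT5 was at 3302 and 2940 FPKM untreated and 2886 and 2951 FPKM treated, and the groups overlapped. Of 9 tested cornified envelope genes 1 rose and 1 fell. IVL, involucrin, was at 0.596 and 0.634 FPKM untreated and 3.22 and 2.22 FPKM treated (1.19 ± 0.16 (SE), adjusted p = 0.00394), and PPL, periplakin, fell from 39.4 and 35.1 FPKM to 20.5 and 21.5 FPKM (-0.80 ± 0.11 (SE), adjusted p = 0.00466).

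Secreted signals changed gene by gene. Of 10 tested cytokines 2 rose and 1 fell, the fall being CX3CL1. CSF2, the growth factor GM-CSF, was at 9.14 and 4.42 FPKM untreated and 25.4 and 26.9 FPKM treated, with uneven untreated libraries below both treated ones (1.87 ± 0.26 (SE), adjusted p = 0.00442). IL1A rose by 0.74, adjusted p = 0.023 and was called under 13 of 22 settings. Of 11 tested NF-κB and innate immune genes 4 rose and none fell (median 0.47). ICAM1, a leukocyte adhesion molecule, went from 9.60 and 7.56 FPKM to 19.3 and 24.1 FPKM (1.25 ± 0.15 (SE), adjusted p = 0.00225), and the others were TLR2, IRAK2 and PTGS2. Of 15 tested interferon response genes none rose and 3 fell (median -0.22). HERC5, the ligase that attaches ISG15, was at 2.21 and 2.62 FPKM untreated and 0.992 and 0.855 FPKM treated (-0.83 ± 0.13 (SE), adjusted p = 0.00781). USP18 had -0.76, adjusted p = 0.0298 and was called under 12 of 21 settings, and IFIT2 had -0.80, adjusted p = 0.0449 and was called under 11 of 22 settings.

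Of 9 tested growth factor genes 2 rose and 1 fell. VEGFC, a lymphatic growth factor, was at 33.8 and 30.2 FPKM untreated and 59.3 and 57.8 FPKM treated (0.85 ± 0.10 (SE), adjusted p = 0.00263), HBEGF, an EGF receptor ligand, rose by 0.63, adjusted p = 0.00966, and FGFBP1, a carrier of FGF ligands, fell from 437 and 495 FPKM to 258 and 260.4 FPKM (-0.84 ± 0.12 (SE), adjusted p = 0.00442). The groups did not overlap for any of the 3. Of 6 tested prostaglandin genes SLCO2A1 and PTGS2 rose and PTGER4 fell. PTGS2, the inducible cyclooxygenase, was at 1.22 and 1.55 FPKM untreated and 3.02 and 3.41 FPKM treated (0.82 ± 0.13 (SE), adjusted p = 0.00715). PTGER4, a prostaglandin E receptor, had -0.54, adjusted p = 0.0267 and was called under 9 of 21 settings.

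Among 9 tested Notch genes JAG1 and HES1 rose and NRARP fell. JAG1, a Notch ligand, had nearly equal replicates, 23.2 and 23.3 FPKM untreated and 56.8 and 57.1 FPKM treated (1.25 ± 0.097 (SE), adjusted p = 0.000337). HES1, a Notch target, rose by 0.77, adjusted p = 0.0318 and NRARP, a feedback inhibitor of Notch, changed by -0.56, adjusted p = 0.0482, called under 13 of 22 settings and 8 of 22 settings respectively. Of 14 tested Wnt genes 4 rose and none fell (median 0.29). SFRP1, a secreted Wnt antagonist, was at 32.1 and 30.7 FPKM untreated and 65.4 and 60.3 FPKM treated (0.98 ± 0.10 (SE), adjusted p = 0.00115), and the ligand genes WNT9A, WNT7A and WNT7B, the last called under 12 of 22 settings, were the others. Of 9 tested semaphorin and plexin genes 2 rose, SEMA3C, a secreted guidance cue, from 37.8 and 48.6 FPKM to 99.9 and 84.6 FPKM (1.08 ± 0.15 (SE), adjusted p = 0.00488), and PLXNA2 (0.64, adjusted p = 0.0224). Of 16 tested immediate early and MAP kinase feedback genes 2 rose, JUN, called under 11 of 22 settings, and JUNB, and 1 fell, DUSP2, a nuclear phosphatase, at 3.88 and 2.69 FPKM untreated and 1.40 and 1.42 FPKM treated (-0.82 ± 0.17 (SE), adjusted p = 0.0262, called under 12 of 21 settings). Of 10 tested YAP and TEAD targets 2 rose, CCN2 and CCN1.

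The replication and mitotic lists had medians below that of all genes, and the growth arrest list had one above it. Of 26 tested DNA replication and G1/S genes 4 fell and 2 rose, with a median of -0.35 against -0.044 over all tested genes. The falls were E2F2, MCM6, CHAF1A (called under 11 of 22 settings) and GINS2. MCM6, a subunit of the replicative helicase, was at 52.1 and 52.9 FPKM untreated and 35.9 and 32.6 FPKM treated, without overlap (-0.60 ± 0.11 (SE), adjusted p = 0.0125). The rises were CCND1, cyclin D1 (0.45, adjusted p = 0.0287), and the repressor E2F7 (0.56, adjusted p = 0.0287), each called under 11 of 22 settings. Of 13 tested mitotic genes none was called, although the median was -0.33 and all 13 values were below 0. CCNA2, cyclin A2, had the smallest p of these, at 64.7 and 73.8 FPKM untreated and 55.3 and 43.9 FPKM treated (-0.48 ± 0.14 (SE), adjusted p = 0.0782). Of 8 tested CDK inhibitor and growth arrest genes 3 rose and none fell (median 0.065): GADD45B, CCNG2, a cyclin of arrested cells (1.26, adjusted p = 0.00261), and BTG2 (0.54, adjusted p = 0.0496, called under 6 of 22 settings). CDKN1A and CDKN2B, the best-known arrest targets of TGF-β, have several transcripts and were not tested.

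Metabolic lists had 1 or 2 calls each and the ribosomal list none. Of 12 tested ATF4 and unfolded protein genes 1 rose, although the median was 0.36 and all 12 values were above 0, the lowest at 0.038. The gene that rose was DNAJB9, a chaperone of the endoplasmic reticulum, from 4.10 and 4.72 FPKM to 9.80 and 7.57 FPKM (0.83 ± 0.15 (SE), adjusted p = 0.0149). Of 13 tested glycolysis and hypoxia genes 2 rose (median -0.051). PFKFB4, a regulator of glycolytic flux, was at 3.44 and 4.04 FPKM untreated and 9.27 and 13.5 FPKM treated (1.37 ± 0.17 (SE), adjusted p = 0.00305), and BNIP3L, a mitophagy receptor, had 0.86, adjusted p = 0.0217 and was called under 14 of 22 settings. Of 7 tested lipid synthesis genes 1 rose, SQLE, squalene epoxidase, at 261 and 289 FPKM untreated and 398 and 356 FPKM treated (0.45 ± 0.11 (SE), adjusted p = 0.0447, called under 7 of 21 settings). None of 12 tested ribosomal protein genes was called (median 0.018), RPS7 having 629.9 and 615 FPKM untreated and 642 and 740.3 FPKM treated. Of 6 tested SOX genes SOX4 was the 1 called, and SOX9, a SoxE factor, was level at 14.4 and 13.6 FPKM untreated and 14.3 and 13.3 FPKM treated (-0.023, adjusted p = 0.934). Of 17 tested long noncoding RNAs 4 rose, UCA1, MIR31HG (0.81, adjusted p = 0.00498), LINC01133 (0.98, adjusted p = 0.0134) and MIR100HG (0.63, adjusted p = 0.0484), and VPS9D1-AS1 fell (-0.78, adjusted p = 0.0358). The call of MIR100HG was kept under 8 of 22 settings and that of VPS9D1-AS1 under 12 of 22 settings.

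The response was set beside that of scrambled-shRNA cells to ask whether TGF-β acted otherwise with SOX4 lowered. The responses share no library, but the marks of both kinds of cells were chosen together, with weights against differing responses. The shared calls, the correlation and the lack of opposite calls below depend in part on that choice. They are not independent agreement. In scrambled-shRNA cells 388 of 5182 genes were called (7.49%), of which 265 rose (5.11%) and 123 fell (2.37%). Of the 328 rises of SOX4-shRNA cells that were tested in both, 197 (60.1%) rose in scrambled-shRNA cells too, which is 74.3% of the 265 there. Of the falls, 52 were shared, 41.6% of those in SOX4-shRNA cells and 42.3% of those in scrambled-shRNA cells. No gene was called in opposite directions. Across 5175 genes, which are not independent replicates, the responses had a Pearson r of 0.786. Over the 265 genes that rose in scrambled-shRNA cells the median was 0.75 there and 0.76 in SOX4-shRNA cells, and 134 of them had the larger change in SOX4-shRNA cells. Over the 123 falls of scrambled-shRNA cells the median was -0.63 there and -0.45 in SOX4-shRNA cells, where 18 had the larger fall. Of the genes called in SOX4-shRNA cells, 264 of the 328 rises and 91 of the 125 falls were larger there. Each of these sets was chosen on 1 of the responses compared, so the counts are descriptions and were not tested.

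No difference between the responses was called by limma in 5179 tested genes (0%), where 156 reached an unadjusted p under 0.05. Since the marks were chosen with weights against differing responses, the lack of calls does not show that the responses were equal. Run on the recovered reads, voom called 3, TGFBI, XYLT1 and ADAM19. With crossed replicate numbers as a block limma called 3, TGFBI, MMP9 and ADAM19. TGFBI came nearest. Scrambled-shRNA cells had 179 and 195 FPKM untreated and 999 and 1009 FPKM treated, so the treated libraries of both kinds of cells reached about the same level, and the untreated SOX4-shRNA libraries were lower. The difference was 1.26 ± 0.14 (SE), adjusted p = 0.0665. It rests on the restored mark, since at the other reading the response in SOX4-shRNA cells, 0.38, would be below the 2.42 of scrambled-shRNA cells. ADAM19 in scrambled-shRNA cells was at 12.6 and 12.2 FPKM untreated and 51.0 and 51.8 FPKM treated, above SOX4-shRNA cells in both conditions, and its difference was 1.04 ± 0.15 (SE), adjusted p = 0.334. The size for ADAM19 rests on its mark as well, at 0.017 against 1.97, and for SLCO2A1, at 0.18 against 1.90. The other smallest p-values for a larger response belonged to SPRR2D (1.03 ± 0.19 (SE), adjusted p = 0.489), a cornified envelope gene with near-identical copies whose reads may be shared, SLCO2A1 (0.90 ± 0.17 (SE), adjusted p = 0.489) and LTBP2 (0.84 ± 0.17 (SE), adjusted p = 0.547).

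A smaller or opposite response in SOX4-shRNA cells had its smallest p-values in SULT1E1, ADAMTS1, CXCL8, COL22A1 and SPOCK1, none of them called as a difference. SULT1E1, the estrogen sulfotransferase, was at 1.74 and 1.81 FPKM untreated and 3.07 and 2.81 FPKM treated in scrambled-shRNA cells, and at 8.16 and 10.1 and 6.26 and 5.18 FPKM in SOX4-shRNA cells. It fell in SOX4-shRNA cells (-0.59, adjusted p = 0.0402, called under 12 of 22 settings) and had a change of 0.51 in scrambled-shRNA cells, a difference of -1.10 ± 0.20 (SE), adjusted p = 0.489. CXCL8, the chemokine interleukin-8, was at 4.44 and 4.53 FPKM and then 6.98 and 7.99 FPKM in scrambled-shRNA cells, and at 18.8 and 22.6 and 16.5 and 15.4 FPKM in SOX4-shRNA cells. Its values were higher with TGF-β in the scrambled libraries and lower in the SOX4-shRNA ones, a difference of -0.98 ± 0.18 (SE), adjusted p = 0.489. The difference of CXCL8 rests on the restored marks. At the other reading the response in SOX4-shRNA cells, 2.89, would be above the 0.63 of scrambled-shRNA cells. ADAMTS1, a matrix protease, had a difference of -0.89 ± 0.16 (SE), adjusted p = 0.489, and all its SOX4-shRNA values were intact. SPOCK1, a proteoglycan, had a difference of -0.71 ± 0.16 (SE), adjusted p = 0.724. That of COL22A1 was -0.92 ± 0.19 (SE), adjusted p = 0.557, but 0.91 with voom, where its sign turned.

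**Figure D4:**
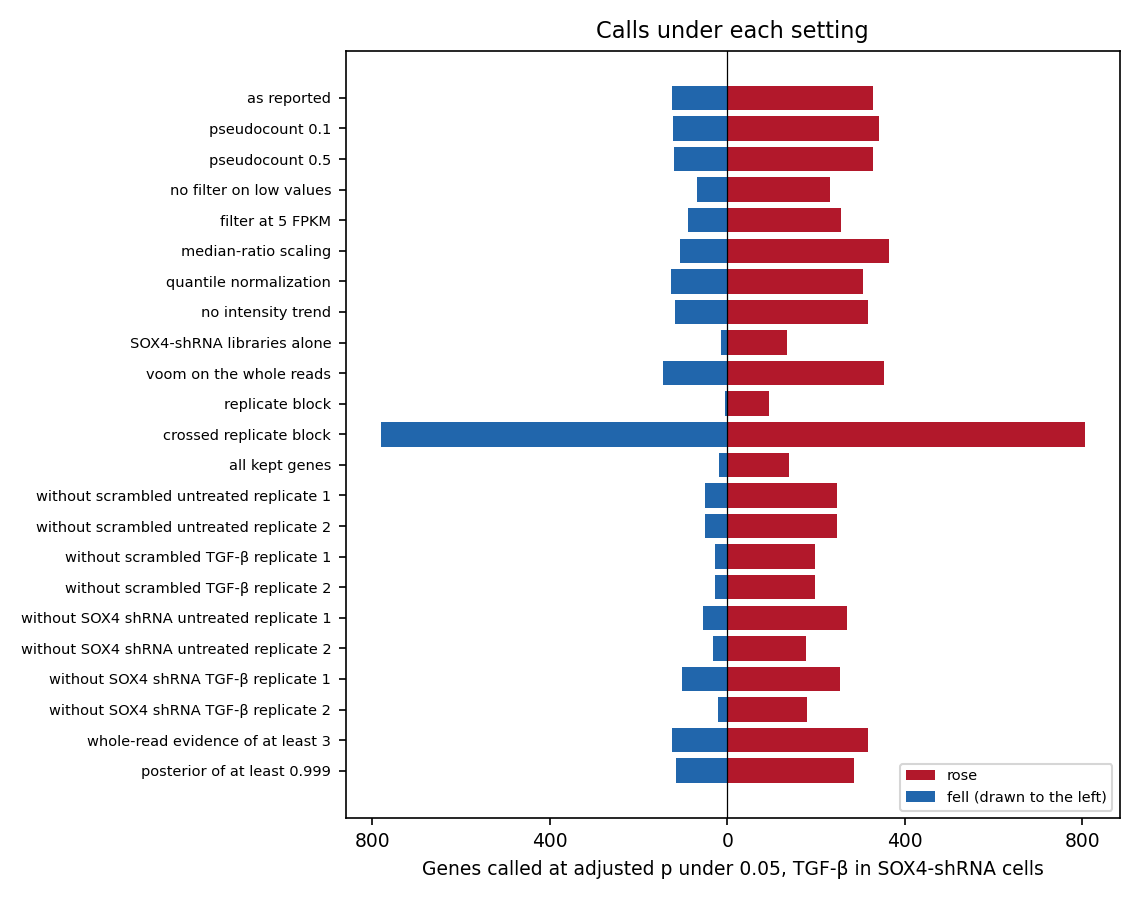
Number of genes called for TGF-β in SOX4-shRNA cells (x axis, rises to the right of 0 and falls to the left) as reported and under each alternative setting. The reported 329 rises and 125 falls stand at the top, the SOX4-shRNA libraries alone give 135 and 15, and the crossed replicate block gives 805 and 781.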

How the data were processed

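The submitters' processing notes name hg19, Cuffdiff, Cufflinks 2.2.1 and TopHat2 2.0.9. The authors deposited 1 table of 48175 RefSeq transcripts in 8 columns of FPKM, an other unit here since marks are lost. How libraries were scaled and whether strand was used in counting is not given in the sources used here. Per the labels' protocols, libraries were 75-nt single reads from a stranded ribosomal-depletion kit, while another label names polyA RNA.

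In 34.1% of cells the decimal mark was lost, which leaves up to 3 readings, and 13.9% of cells in damaged exponents were set to 0 (below 1e-04 FPKM). Genes with 1 transcript of at least 600 nt were restored from whole reads: the length was searched within 1.0 log10 of the GENCODE 44 length, every nonzero cell (at least 6) had to be whole within 0.001 reads plus rounding, and log10 evidence had to reach 1.5. Of 5433 genes 5191 (95.5%) passed, against 16 (0.294%) with random digits. A contrast was tested where at least 0.95 of the posterior lay in readings within 0.2 log10. In simulated data of 755 genes, 730 were found to be whole reads and 660 were used. Among those 660, the response was restored correctly in 652. These settings were revised several times after seeing the data, with readings of named genes in view. TGFBI passes only the looser evidence minimum. A narrower search had called the long noncoding RNA LINC00649 as the largest fall, and the wider search removed that call.

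The tests used limma 3.58.1 (R 4.3.3) on log2(FPKM + 1), 4 groups in 1 fit with an intensity trend and 4 residual degrees of freedom, for genes at 1 FPKM or more in at least 2 libraries. Simulated 2-fold changes for the SOX4-shRNA contrast were recovered in 196 of 200 of 5191 genes. The simulation gave all groups the same spread, changed no genes with few reads and had no lost marks. It checks the fit and does not give the power for the real libraries. No column was left out, and Python 3.11.15 with pandas 2.3.3 did the rest. A gene with several transcripts was not tested, since its values are not gene totals. Promoter sequences are from RefSeq and hg19 gene coordinates from GENCODE 44 lifted to GRCh37. The members and lists were chosen with earlier results of these data known. Named genes were SOX4, the 12 largest calls per direction whose libraries do not overlap, up to 5 members per list by p, the 5 smallest p per direction for the difference, and a fixed set, of which 2 are not reported here. Per-library values for further list members, and names of other called list members, were added afterwards. The libraries' scales matched 12.6 M to 16.8 M reads. Alternatives were pseudocounts, filters, scalings, other fits, each library left out and a replicate block. Whole-read evidence of at least 3 and a stricter posterior were added after seeing the data.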

Additional observations from a re-analysis of the deposited data

How the results depend on the processing

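Libraries did not vary together by replicate number: deviations of same-numbered libraries correlated at -0.803 in SOX4-shRNA and -0.401 in scrambled-shRNA cells across 3557 genes. The libraries of a group deviate by equal and opposite amounts, so differently numbered libraries correlated as strongly, with a positive sign. They therefore varied together by crossed numbers, for which the reported fit has no term. The replicate block gave 93 rises and 6 falls, and crossed numbers 805 and 781. The SOX4-shRNA libraries alone gave 135 and 15, all kept genes, including several-transcript ones at their most probable reading, 138 and 18, and no filter on low values 232 rises and 68 falls. Leaving out 1 library gave 178 to 270 rises, 22 to 103 falls and 0 differences, the lone library being assumed to vary like the other groups. The difference between responses, 0 as reported, was 3 with voom and 3 with crossed numbers. Pseudocounts, the 5 FPKM filter, other scalings, no trend and voom gave 255 to 365 rises and 88 to 145 falls. After seeing the data, whole-read evidence of at least 3 and a stricter posterior were added. The first gave 317 rises and 124 falls, with 8 called genes no longer tested, among them TGFBI, MMP14, COL4A1 and SQLE. The stricter posterior gave 285 and 115. Called genes that it left untested include TGFBI, MMP9, ADAM19, SLCO2A1, UCA1, ABCA1, KCTD11, WNT9A, CDH2, VASN, FSTL3, COL1A1, CSF2 and SOX4. It therefore does not check most of the largest rises. No called change of a named gene turned its direction under any setting in which it was tested, while the uncalled difference of COL22A1 did with voom. Every setting used the same readings of the marks, so the settings do not check direction against other readings. The cause of these shifts was not tested.

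Limits: 2 libraries per group, 1 shRNA and 1 time leave every call tied to these libraries. Genes with several transcripts, among them SMAD7, SKIL, PMEPA1, FN1, ITGB6, TGFB2, TP63 and ID1, were not tested, and ID2 could not be restored from whole reads. FPKM below 1 rest on few reads, and fold changes there are understated by the added 1 FPKM. Size and direction at a lost mark hold only if the reading is right, since other readings differ by factors of 10.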
